A study of Mus musculus with 8 samples.

Results

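The genes described are 38 genes of the autophagy machinery and its cargo receptors, taken by gene name from the 55487 genes listed in the table. Of the 38, 37 had a mean of at least 1 TPM over the libraries and entered the test with the other genes that did (11796 in all), and each of the 37 was at or above 1 TPM in every library. The remaining gene, Optn, which encodes the receptor optineurin, was at 0.06, 0, 0 and 0.06 TPM in the LPS libraries and at 0 in all LPS + UDCA libraries, so it was not tested.

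RNA was sequenced from J774A.1, a mouse macrophage line grown from a BALB/c tumour, after 24 h with LPS at 1 μg/mL or with the same LPS plus UDCA at 1 mM, with 4 libraries in each group. LPS is a component of the bacterial outer membrane that activates macrophages, UDCA is ursodeoxycholic acid, a secondary bile acid, and the comparison asks how the transcriptome of LPS-activated cells changes when UDCA is present. Both groups received LPS, and no library without LPS or with UDCA alone is used here. The labels do not say that the libraries came from separate cultures, so the p-values measure only the spread between these libraries, which may be technical.

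Values are TPM, a unit that corrects a gene's reads for its length and expresses them as parts of 1000000 in the library, so that levels of different genes can be set side by side. TPM holds no read number, so the depth behind each value is unknown and the errors given are spreads between libraries. The columns summed to between 973190 and 977485 TPM with LPS and to between 958918 and 962737 TPM with UDCA. Of 9 macrophage markers, 8 were at or above 1 TPM in every library and Mertk was at 0. Their summed level, most of it Lyz2, was 3100 to 3258 TPM with LPS and 1221 to 1343 TPM with UDCA. Of the 8, Lyz2, Cd68, Csf1r and Itgam were lower with UDCA (log2 fold changes of -2.19, -1.39, -1.35 and -2.91), while Adgre1, Fcgr1, Ptprc and Spi1 had positive ones (1.27, 1.48, 0.47 and 0.19). Their part in the results below was not tested. Of 12 markers of epithelial, fibroblast, lymphoid and endothelial cells, none reached 1 TPM in any library, 3 were at 0 throughout, and the highest single value was 0.95 TPM.

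Macroautophagy encloses cytoplasm in a double membrane, the autophagosome, and delivers it to the lysosome. The ULK kinase complex starts the process, a class III phosphatidylinositol 3-kinase complex marks the membrane with its lipid, WIPI and ATG2 proteins with the scramblases ATG9 and VMP1 supply membrane, and 2 ubiquitin-like conjugation systems attach ATG8-family proteins (LC3 and GABARAP) to it. Receptors such as p62 bind cargo on one side and ATG8 proteins on the other. In macrophages the same machinery removes intracellular bacteria and damaged mitochondria and limits inflammasome activity.

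On log2(TPM + 1), 5 of these genes rose by at least 2-fold with UDCA. They were the receptor genes Sqstm1, Tax1bp1 and Calcoco1 and the initiation genes Ulk1 and Rb1cc1. Atg4c, a gene of the conjugation group, had a ratio of mean TPM of 2.22 but lay just under 2-fold on that scale. Most of the genes that extend and lipidate the membrane moved less. The log2 fold change (log2FC) is the difference of mean log2(TPM + 1), LPS + UDCA minus LPS, and understates the change of genes with few TPM. Its standard error (SE) and adjusted p came from limma, with Benjamini-Hochberg adjustment over all genes tested. At an adjusted p under 0.05, 19 of the 37 tested members were higher with UDCA (51.4%), against 40.2% of all genes tested. On the lower side there were 5 members (13.5%), against 32.3% of all genes. With a fold change of at least 2 required as well, 5 members were called higher (13.5%, against 8.71% of all genes) and 0 were called lower (against 8.44%). The lowest log2FC among the members was -0.54, so that 0 would also be called lower at an unadjusted p under 0.05, and 0 were under every alternative run. The groups did not overlap in TPM for 20 of the 37 (54.1%), against 66.8% of all genes.

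The median log2FC of the tested members was 0.18, against 0.082 for all genes, and their median absolute change was 0.29, against 0.47 for all genes. The split between higher and lower depended on scaling, for the members and for all genes. In the main fit, 4741 of all 11796 genes tested were higher and 3807 lower. Median-of-ratios size factors moved the median of all genes from 0.082 to -0.018. With them, 15 members were higher and 8 lower with a median of 0.104, against 4097 and 4450 of 11780 genes. With the median of all genes taken off, 15 members were higher and 7 lower, against 4161 and 4323 of all genes. Only 3 members were lower without LPS replicate 1, LPS replicate 2, LPS + UDCA replicate 3 or LPS + UDCA replicate 4. In these fits, in that order, 3620, 3656, 3630 and 3710 of all genes were lower. TPM is a share of the RNA sequenced, so a change in RNA per cell and a change in the cells present cannot be told apart.

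**Figure D1:**
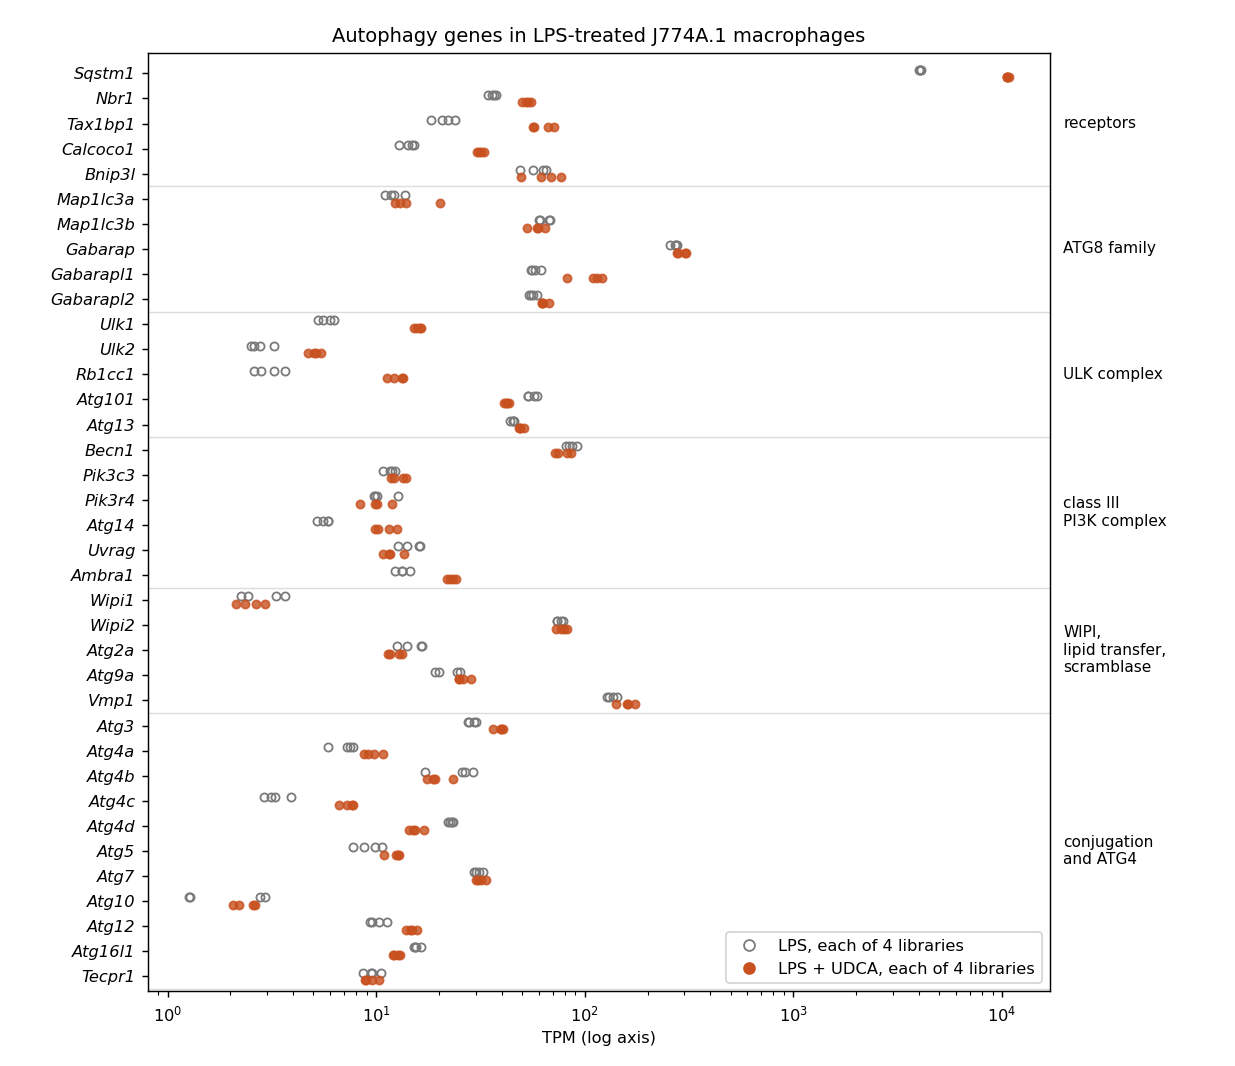
Level of each tested member in TPM on a log axis, 1 row per gene grouped by role, with open circles for the 4 LPS libraries and filled circles for the 4 LPS + UDCA libraries. Sqstm1 lies far above all others in both groups, and the groups separate clearly for Tax1bp1, Calcoco1, Ulk1 and Rb1cc1. Optn, which was not tested, is not drawn.

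Among the receptors, which tether cargo to the growing membrane, 4 of the 5 tested rose (against 40.2% of all genes) and 3 passed both thresholds (against 8.71%), and their median log2FC was 1.09. Sqstm1 encodes p62, the receptor of ubiquitin-tagged aggregates, which also binds KEAP1 and is itself degraded with its cargo. It lies on chromosome 11 from 50199366 to 50210827 (GRCm38, minus strand) and had 4000.4, 4103, 4028 and 4044 TPM in LPS replicates 1 to 4 and 10757, 10508, 10596 and 10531 TPM in LPS + UDCA replicates 1 to 4. The groups lay far apart, with little spread inside either. The means were 4044 ± 43.5 TPM and 10598 ± 112 TPM (SD, n = 4 each), a 2.62-fold difference (log2FC 1.39, SE 0.021, limma adjusted p = 2.7e-10). By mean TPM, Sqstm1 stood 31st among all genes listed with LPS and 5th with UDCA.

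Tax1bp1 encodes a ubiquitin-binding receptor that also takes part, with A20, in the shut-off of NF-κB signalling. On chromosome 6 from 52713729 to 52766780, it had 23.9, 20.7, 18.3 and 22.1 TPM with LPS and 56.9, 56.7, 66.5 and 71.5 TPM with UDCA. Every UDCA library was above every LPS library, with more spread in the UDCA group. Its log2FC was 1.52 (SE 0.099, limma adjusted p = 1e-06).

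Calcoco1, on chromosome 15 from 102706777 to 102722178, encodes a receptor for the endoplasmic reticulum and Golgi that is related to NDP52. It had 14.2, 12.9, 14.8 and 15.2 TPM with LPS and 31.9, 32.9, 31.02 and 30.5 TPM with UDCA, again without overlap. The log2FC was 1.09 (SE 0.060, limma adjusted p = 3.5e-07). Under median-of-ratios scaling it was 0.99, just under the 2-fold threshold, and only 4 members then passed both thresholds. Of 11780 genes, 807 then passed both as higher, against 1028 of 11796 in the main fit.

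Nbr1, which encodes a receptor with the domain layout of p62, rose less, from 36.2 ± 1.45 to 52.8 ± 2.13 TPM (SD, n = 4 each; log2FC 0.53, limma adjusted p = 7.1e-06). Bnip3l encodes the mitophagy receptor NIX and did not pass the test. Its LPS libraries ran from 49.0 to 65.1 TPM and its UDCA libraries from 49.6 to 77.1 TPM (log2FC 0.13, SE 0.14, limma adjusted p = 0.42).

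The receptor pool as a whole therefore rested on 1 gene. Summed over the 6 receptors, TPM went from 4174 ± 37.4 to 10810 ± 100.3 (SD, n = 4 each), and Sqstm1 made up 96.9% of that sum with LPS and 98.04% with UDCA. Summed over all 38 members, TPM went from 5301 to 12068, a ratio of 2.28. Without Sqstm1 the sum went from 1257 ± 20.1 to 1470 ± 18.9 TPM, a ratio of 1.17. These sums are of TPM as deposited, with no further scaling, and are a description.

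Upstream sequences of the 3 strongly raised receptor genes are shown as a description, and the part of any motif in their rise was not tested. The GC box, searched after the sequences were seen, occurred in 67.7% of the 31 members with a promoter entry. It occurred in 38.2% of all 27025 genes with an entry, which include genes not tested here. They are RefSeq sequences of GRCm38.p6, read 5′ to 3′ on the gene's strand from the 250 bases before an annotated start, and leave out bases that lie in exons of any transcript. Capitals mark GC boxes (GGGCGG or its complement CCGCCC), the element bound by SP-family factors, in Sqstm1 and Calcoco1, and an antioxidant response element match (TGACNNNGC), the element bound by NRF2, in Tax1bp1. The coordinates are chr11:50210828-50210889 on the minus strand for Sqstm1, chr15:102722179-102722428 on the minus strand for Calcoco1, and chr6:52713956-52714164 on the plus strand for Tax1bp1.
Sqstm1: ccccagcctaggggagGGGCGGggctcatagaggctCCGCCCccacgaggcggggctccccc
Calcoco1: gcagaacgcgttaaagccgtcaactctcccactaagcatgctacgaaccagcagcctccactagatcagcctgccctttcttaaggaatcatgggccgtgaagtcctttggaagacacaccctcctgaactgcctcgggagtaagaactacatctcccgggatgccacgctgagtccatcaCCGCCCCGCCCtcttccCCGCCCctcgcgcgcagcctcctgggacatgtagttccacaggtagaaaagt
Tax1bp1: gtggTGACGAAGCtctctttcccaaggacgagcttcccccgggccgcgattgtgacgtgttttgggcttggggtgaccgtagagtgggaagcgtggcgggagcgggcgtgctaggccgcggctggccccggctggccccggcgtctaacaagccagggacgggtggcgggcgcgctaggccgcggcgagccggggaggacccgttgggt
The stretch of Sqstm1 holds 2 GC boxes in 62 bases and that of Calcoco1 holds 3 in 250 bases, where a pair of them shares 1 base. The Tax1bp1 stretch of 209 bases holds 1 antioxidant response element match and no GC box, and it precedes the second annotated start, inside the gene. The 250 bases before the other annotated start of Tax1bp1 all lie in exons, so none of them are shown or counted.

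Sqstm1 shares exonic bases with the antisense gene Mrnip, and other genes hold 16.4% of its 31-base words. Mrnip was between 1.17 and 1.88 TPM in all libraries. Gm43966, which overlaps Tax1bp1 on the other strand, was at 0 with LPS and between 0.56 and 1.06 TPM with UDCA. Whether the counting used strand is not stated, so reads of such pairs may not be separated.

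The ULK complex is the kinase complex through which mTORC1 and AMPK control the start of autophagy. Of its 5 genes, 4 rose and 1 fell, against 40.2% and 32.3% of all genes. The groups did not overlap for any of the 5, as was so for 66.8% of all genes. The median log2FC was 0.69. The scaffold and kinase subunits rose most, and the subunit with the highest level with LPS was the one that fell.

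Rb1cc1 encodes FIP200, the large scaffold of the complex. On chromosome 1 from 6206197 to 6276648 (plus strand), it had 2.60, 2.82, 3.67 and 3.24 TPM with LPS and 11.3, 13.3, 13.4 and 12.1 TPM with UDCA. No UDCA library came near the LPS range, and the log2FC of 1.73 was the highest of all members (SE 0.0997, limma adjusted p = 4.9e-07). The ratio of the mean TPM was 4.07, and a log2 ratio without a pseudocount, chosen after seeing the data, was 2.02. The antisense gene 4732440D04Rik, whose exons overlap it, had 0.09 to 1.70 TPM with LPS and 1.59 to 3.32 TPM with UDCA, and its part in the rise was not tested.

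Ulk1 encodes the kinase itself. On chromosome 5 from 110784488 to 110810097 (minus strand), it had 6.31, 5.28, 6.01 and 5.59 TPM with LPS and 16.2, 16.5, 15.1 and 15.7 TPM with UDCA. The 2 ranges were well separated (log2FC 1.31, SE 0.067, limma adjusted p = 2.4e-07). Its paralog Ulk2 had 2.79 ± 0.327 and 5.09 ± 0.299 TPM (SD, n = 4 each; log2FC 0.69, limma adjusted p = 0.00011).

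The sequence upstream of the Ulk1 start is shown as a description (RefSeq, GRCm38.p6, GC boxes in capitals). It holds 5 GC boxes in 234 bases at chr5:110810098-110810331 on the minus strand. That is the most among the stretches printed for Sqstm1, Calcoco1, Tax1bp1 and Ulk1, which differ in length. Boxes were not counted for the other ULK complex genes.
Ulk1: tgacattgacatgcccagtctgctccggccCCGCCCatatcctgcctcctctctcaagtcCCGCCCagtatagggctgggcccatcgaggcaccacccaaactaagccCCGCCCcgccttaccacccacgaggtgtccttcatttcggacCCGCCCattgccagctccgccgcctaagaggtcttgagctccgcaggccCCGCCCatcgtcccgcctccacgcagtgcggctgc
The boxes read as CCGCCC on the strand of the gene.

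Atg101 encodes the partner that stabilizes ATG13 and, on chromosome 15 from 101284272 to 101290945, moved the other way. It had 53.5, 57.3, 58.8 and 53.6 TPM with LPS and 43.1, 42.4, 40.8 and 42.0 TPM with UDCA. All UDCA libraries were below all LPS libraries (log2FC -0.40, SE 0.045, limma adjusted p = 3.8e-05). Atg13 encodes the adaptor between the kinase and the scaffold and rose from 45.0 ± 0.978 to 49.4 ± 1.35 TPM (log2FC 0.13, limma adjusted p = 0.012), a call that was lost under median-of-ratios scaling (log2FC 0.025, limma adjusted p = 0.58).

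**Figure D2:**
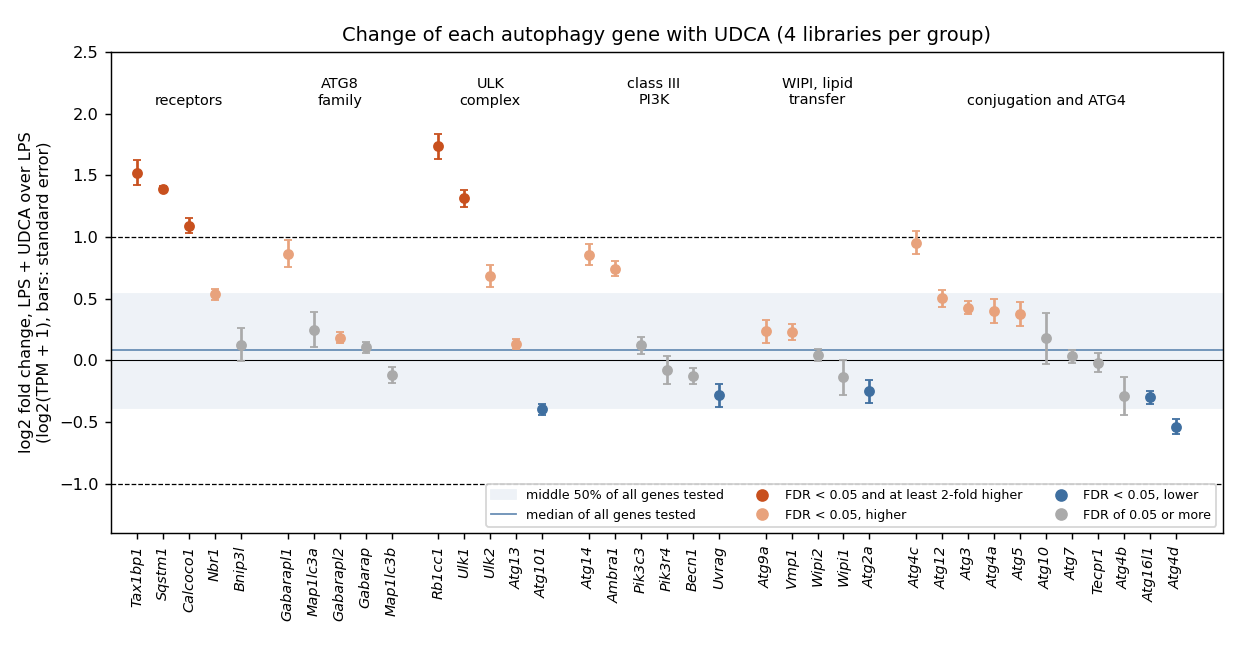
Log2 fold change of each tested member, LPS + UDCA over LPS on log2(TPM + 1), by role, with bars for the limma standard error (SE). Colour gives the call, the shaded band is the middle 50% of all genes tested (-0.39 to 0.54), the blue line is their median (0.082), and dashed lines mark a 2-fold change. The 5 genes above the upper dashed line are Tax1bp1, Sqstm1, Calcoco1, Rb1cc1 and Ulk1, and no gene reaches the lower one.

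Rb1cc1 and Ulk1 thus drew closer in level to Atg101. The ratio of Rb1cc1 to Atg101 TPM within a library was 0.0486 to 0.0624 with LPS and 0.262 to 0.329 with UDCA. The ratio of Ulk1 to Atg101 went from a mean of 0.104 to 0.377, and that of Ulk1 to Ulk2 from 2.09 to 3.13. These pairs and those below were chosen after their values were seen, so the ratios are a description with no test. The sum over the 5 genes went only from 112 ± 2.16 to 125 ± 1.73 TPM (SD, n = 4 each).

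The class III PI3K complex makes the lipid that marks the forming membrane. Its catalytic subunit Pik3c3, regulatory subunit Pik3r4 and core subunit Becn1 did not pass the test, while Atg14 and the regulator Ambra1 rose and Uvrag fell. These are 33.3% higher and 16.7% lower, against 40.2% and 32.3% of all genes. The median log2FC of the 6 genes was 0.023, and it turned negative under median-of-ratios scaling (-0.077), quantile normalization (-0.013) and with the median of all genes taken off (-0.059). It was also negative without LPS replicate 3 (-0.011) or LPS + UDCA replicate 2 (-0.002).

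Atg14, on chromosome 14, encodes the subunit that directs the complex to the site where autophagosomes form. It had 5.90, 5.21, 5.89 and 5.54 TPM with LPS and 10.2, 9.83, 12.6 and 11.5 TPM with UDCA, without overlap. Its log2FC was 0.86 (SE 0.087, limma adjusted p = 1.8e-05). Ambra1, which encodes a positive regulator of the ULK and Beclin 1 complexes, had 13.3 ± 0.925 and 22.99 ± 1.08 TPM (SD, n = 4 each; log2FC 0.74, limma adjusted p = 5.3e-06).

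Uvrag encodes the subunit that replaces ATG14 in the complex of endosomes. It had 12.7 to 16.2 TPM with LPS and 10.8 to 13.7 TPM with UDCA, ranges that overlapped (log2FC -0.28, limma adjusted p = 0.023). Its call was lost without LPS replicate 1 or 2, or without LPS + UDCA replicate 1, 3 or 4 (limma adjusted p = 0.052 to 0.066). The ratio of Atg14 to Uvrag within a library was 0.323 to 0.463 with LPS and 0.720 to 1.09 with UDCA.

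Becn1 encodes Beclin 1 and had 85.7 ± 4.35 and 78.6 ± 6.56 TPM (log2FC -0.13, SE 0.064, limma adjusted p = 0.10). It passed as lower under median-of-ratios scaling (log2FC -0.23, limma adjusted p = 0.011). Pik3c3 encodes the lipid kinase VPS34, and its log2FC was 0.12 (SE 0.071, limma adjusted p = 0.15). Pik3r4 encodes its anchor VPS15, with a log2FC of -0.08 (SE 0.11, limma adjusted p = 0.56). A p above the threshold does not show that these levels were equal in the 2 groups.

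Genes for membrane supply changed little. Of the 5 in this group, Vmp1 and Atg9a rose, Atg2a fell and Wipi1 and Wipi2 did not pass, with all log2FCs between -0.25 and 0.23 and overlapping groups in every one. Of all genes, 40.2% rose and 32.3% fell. Vmp1 encodes a scramblase of the endoplasmic reticulum and had 127 to 143 TPM with LPS and 140 to 173 TPM with UDCA (log2FC 0.23, limma adjusted p = 0.01). This call was lost under median-of-ratios scaling (log2FC 0.12, limma adjusted p = 0.14) and with the median of all genes taken off (log2FC 0.15, limma adjusted p = 0.063). Atg9a encodes the scramblase of the vesicles that seed the membrane, and it had 22.2 ± 3.02 and 26.1 ± 1.64 TPM (limma adjusted p = 0.046). In 6 of the 8 fits that left out 1 library the call of Atg9a was lost, with a limma adjusted p of 0.061 to 0.12. The libraries concerned were LPS replicates 2 and 3 and all 4 LPS + UDCA replicates. It was also lost under median-of-ratios scaling (log2FC 0.13, limma adjusted p = 0.17). Other genes hold 32.4% of the 31-base words of Atg9a, and Ankzf1, which overlaps it on the other strand, had 9.43 to 11.9 TPM with LPS and 17.95 to 18.9 TPM with UDCA. Its part in the Atg9a call was not tested.

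Atg2a encodes a lipid transfer protein and had 12.6 to 16.6 TPM with LPS and 11.5 to 13.3 TPM with UDCA (log2FC -0.25, limma adjusted p = 0.038). This call was lost without LPS replicate 1 or 2 or without LPS + UDCA replicate 1, 3 or 4 (limma adjusted p = 0.054 to 0.11). Wipi2, which encodes the lipid sensor that recruits ATG16L1, had 75.4 ± 2.69 and 77.8 ± 4.09 TPM. The less abundant Wipi1 had 2.91 ± 0.692 and 2.53 ± 0.349 TPM (SD, n = 4 each). The median of the 5 log2FCs, 0.043, turned to -0.065 under median-of-ratios scaling.

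The conjugation genes, whose products attach ATG8 proteins to the membrane or cut them free, moved in both directions. Of 11 genes, 5 rose (45.5%, near the 40.2% of all genes), 2 fell (18.2%, against 32.3%) and 4 did not pass. The median log2FC was 0.18, with 0.104 under median-of-ratios scaling, 0.060 and 0.054 without LPS replicate 1 or 2, and 0.298 and 0.317 without LPS replicate 3 or 4. Those that rose were Atg3, Atg4a, Atg4c, Atg5 and Atg12, and those that fell were Atg4d and Atg16l1.

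Atg3 encodes the enzyme that transfers ATG8 proteins to the lipid and rose from 28.7 ± 1.28 to 39.0 ± 1.95 TPM (log2FC 0.43, limma adjusted p = 6.7e-05). Atg12 and Atg5 encode the 2 proteins joined by the other conjugation system. Atg12 had 10.1 ± 0.861 and 14.7 ± 0.719 TPM (log2FC 0.50, limma adjusted p = 0.00015). Atg5 had 9.25 ± 1.27 and 12.2 ± 0.910 TPM (log2FC 0.38, limma adjusted p = 0.0069).

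Atg16l1 encodes the protein that carries that conjugate to the membrane. It had 15.6, 15.1, 16.4 and 15.3 TPM with LPS and 12.04, 12.1, 12.8 and 13.01 TPM with UDCA, without overlap (log2FC -0.30, SE 0.054, limma adjusted p = 0.00074). The ratio of Atg12 to Atg16l1 within a library was 0.584 to 0.731 with LPS and 1.15 to 1.20 with UDCA. Atg7 encodes the activating enzyme of both systems and had 30.8 ± 1.39 and 31.5 ± 1.42 TPM (log2FC 0.033, limma adjusted p = 0.58). Atg10 encodes the enzyme that joins ATG12 to ATG5, and its LPS libraries fell into 1.27 and 1.28 TPM for replicates 1 and 2 and 2.79 and 2.94 TPM for replicates 3 and 4, against 2.07 to 2.62 TPM with UDCA. Tecpr1, which encodes a protein that binds the ATG12 and ATG5 conjugate, had 9.54 ± 0.772 and 9.39 ± 0.660 TPM (SD, n = 4 each).

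The ATG4 proteases prime ATG8 proteins and later remove them from the membrane, and their 4 genes diverged. Atg4c, on chromosome 4, had 3.89, 3.14, 2.90 and 3.29 TPM with LPS and 6.65, 7.27, 7.64 and 7.75 TPM with UDCA. The groups did not overlap, and the log2FC of 0.955 (SE 0.092, limma adjusted p = 1.3e-05) lay just under the 2-fold threshold. It was 1.13 with a pseudocount of 0.1 and 1.02 without LPS replicate 1, so that 6 members then passed both thresholds. Of all 11796 genes, 1444 and 1122 then passed both as higher, against 1028 in the main fit.

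Atg4d, on chromosome 9, had 22.6, 22.2, 23.4 and 23.0 TPM with LPS and 15.1, 16.9, 14.4 and 15.4 TPM with UDCA. It had the lowest log2FC of the members at -0.54 (SE 0.057, limma adjusted p = 2.6e-05), again without overlap. Its exons overlap those of Kri1 on the other strand, which holds 16.5% of its 31-base words and had 58.95 to 73.96 TPM with LPS and 53.4 to 65.0 TPM with UDCA. Atg4a rose from 7.08 ± 0.820 to 9.63 ± 0.910 TPM (limma adjusted p = 0.0045), and 60.8% of its 31-base words were shared with 2 other genes, mainly the pseudogene Atg4a-ps, which stayed at or below 0.07 TPM. Atg4b had 29.2, 25.7, 26.5 and 17.1 TPM with LPS, replicate 4 lying lowest, and 17.6 to 23.3 TPM with UDCA. It did not pass the test with all libraries (log2FC -0.29, limma adjusted p = 0.12) and passed without LPS replicate 4 (log2FC -0.45, limma adjusted p = 0.0036).

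As shares of the summed TPM of the ATG4 genes, which a common scaling of a library cannot change, Atg4c went from 5.74% ± 0.780 to 14.1% ± 1.39 and Atg4d from 39.7% ± 3.68 to 29.7% ± 2.59 (SD, n = 4 each). The share of Atg4a went from 12.4% ± 2.27 to 18.5% ± 1.32. The groups did not overlap for these 3 shares (exact permutation test, 2-sided p = 0.029 each). Adjusted over the 15 shares tested in 3 families, p was 0.054 for each, so none passed. The unadjusted p of 0.029 is the smallest that 70 arrangements can give, so this outcome reflects the number of libraries as well as the shares. For Atg4b the share was 42.2% ± 6.07 and 37.7% ± 3.38 (exact permutation test, 2-sided p = 0.26, adjusted 0.32).

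The ATG8-family genes encode the ubiquitin-like proteins that coat the membrane and bind the receptors. Of the 5, Gabarapl1 and Gabarapl2 rose and the other three did not pass, a share of 40% higher, close to the 40.2% of all genes. The median log2FC was 0.18, with 0.075 under median-of-ratios scaling and 0.099 without LPS + UDCA replicate 2. Gabarapl1, on chromosome 6 from 129533160 to 129542346, had 55.6, 61.9, 57.5 and 55.2 TPM with LPS and 114.9, 82.1, 120.3 and 109.0 TPM with UDCA. LPS + UDCA replicate 2 lay between its own group and the LPS libraries but above all of the latter (log2FC 0.86, SE 0.11, limma adjusted p = 7.6e-05). A share of 25.2% of its words occurs in 1700101I11Rik, an overlapping gene on the other strand that was at or below 0.16 TPM.

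Gabarapl2 had 55.1, 56.5, 53.8 and 59.3 TPM with LPS and 62.4, 62.4, 63.1 and 67.6 TPM with UDCA. The ranges did not overlap, though they lay close (log2FC 0.18, SE 0.045, limma adjusted p = 0.0053). The call was lost under median-of-ratios scaling (log2FC 0.075, limma adjusted p = 0.16).

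Gabarap, the most abundant of the family, had 276.8, 269.8, 273.9 and 256.6 TPM with LPS and 302.1, 306.0, 278.7 and 275.2 TPM with UDCA. Its ranges overlapped (log2FC 0.11, SE 0.045, limma adjusted p = 0.053). The sign and the call depended on scaling, since quantile normalization gave a log2FC of 0.20 (limma adjusted p = 0.0019) and median-of-ratios scaling one of -0.0003.

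Map1lc3b encodes LC3B, the protein most used to follow autophagosomes, and had 67.7, 60.0, 61.3 and 67.9 TPM with LPS and 59.9, 58.9, 53.0 and 64.5 TPM with UDCA. The ranges overlapped (log2FC -0.12, SE 0.068, limma adjusted p = 0.14), and it passed as lower under median-of-ratios scaling (log2FC -0.23, limma adjusted p = 0.0085). Map1lc3a, the least abundant of the family, had 11.7, 13.7, 12.1 and 11.1 TPM with LPS and 13.96, 20.3, 12.3 and 12.9 TPM with UDCA, where replicate 2 stood highest (log2FC 0.25, limma adjusted p = 0.14).

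**Figure D3:**
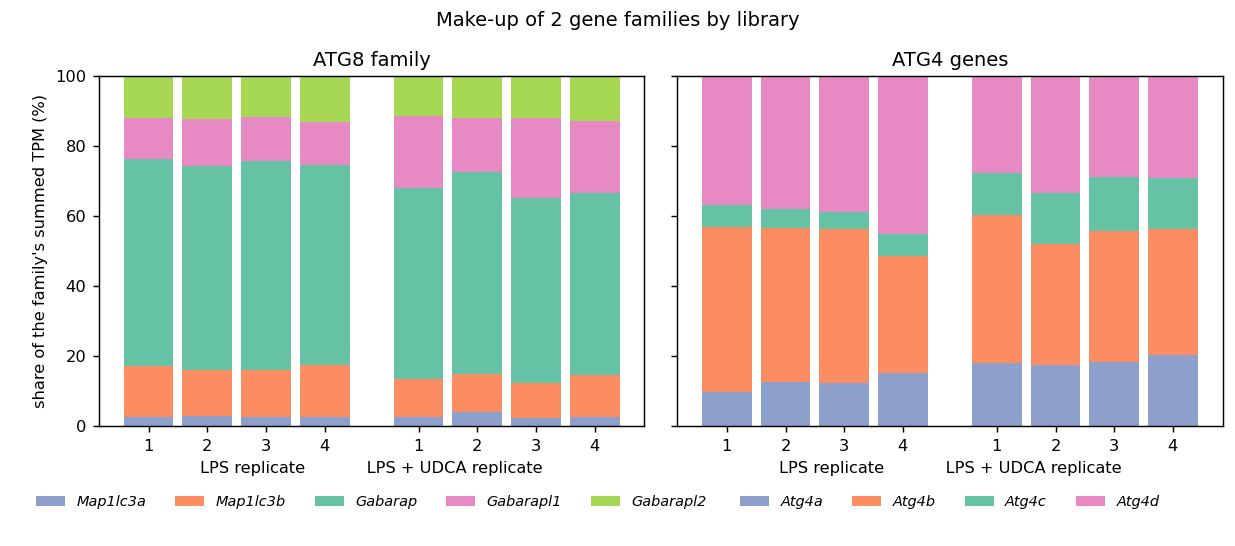
Make-up of the ATG8 family (left) and of the ATG4 genes (right) in each library, as the percent of the family's summed TPM taken by each gene. In the left panel Gabarapl1 takes 11.9 to 13.4% with LPS and 15.5 to 22.8% with UDCA, and in the right panel Atg4c takes 4.81 to 6.44% and 12.1 to 15.4%.

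Within the ATG8 family, Gabarapl1 took 12.5% ± 0.632 of the summed TPM with LPS and 19.9% ± 3.11 with UDCA, and Map1lc3b 13.98% ± 0.973 and 11.05% ± 0.886 (SD, n = 4 each). Both shares had groups without overlap (exact permutation test, 2-sided p = 0.029 each, adjusted 0.054). The share of Gabarap was 58.6% ± 1.20 and 54.3% ± 2.55, with overlapping ranges (exact permutation test, 2-sided p = 0.057, adjusted 0.086). The summed TPM of the family was 459 ± 7.13 with LPS and 535 ± 12.3 with UDCA, a ratio of 1.17. Gabarapl1 stood below Map1lc3b in 3 of the 4 LPS libraries and above it in all 4 UDCA libraries, with a mean ratio of 0.901 and 1.82.

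**Figure D4:**
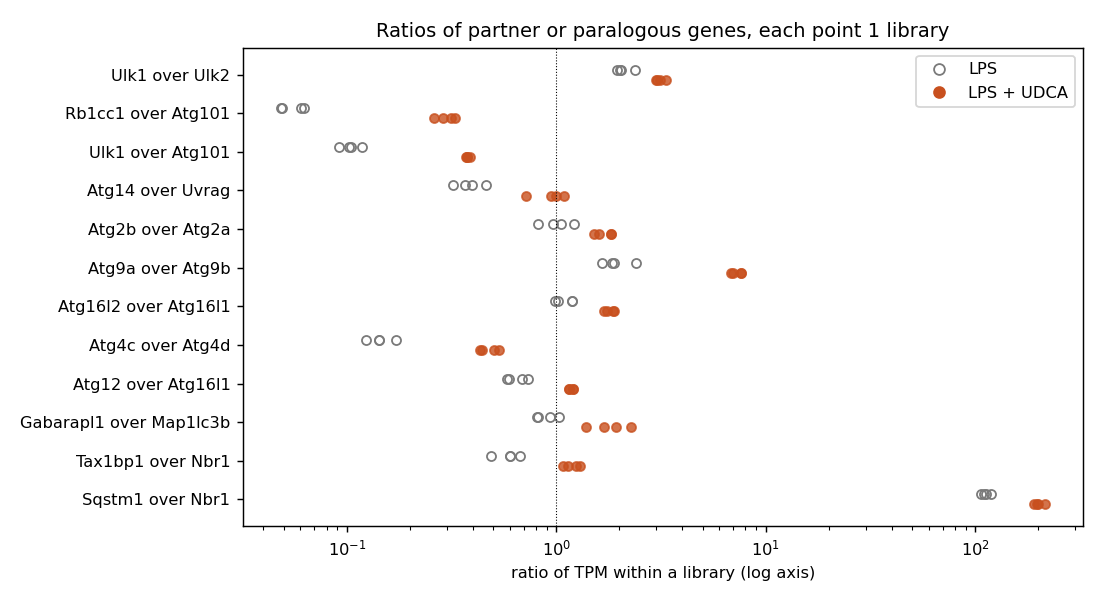
Ratio of the TPM of 2 partner or paralogous genes within a library, on a log axis, for 12 pairs chosen after their values were seen, with open circles for LPS and filled circles for LPS + UDCA. In none of the 12 pairs do the groups overlap, and the ratio of Rb1cc1 to Atg101 moves furthest, from a mean of 0.0552 to 0.298.

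Across the receptors the order of levels also shifted. Tax1bp1 stood below Nbr1 with LPS, at a ratio of 0.487 to 0.668, and above it with UDCA, at 1.08 to 1.30. Sqstm1 was 112 ± 5.39 times the level of Nbr1 with LPS and 201 ± 9.99 times with UDCA (SD, n = 4 each). By order of mean TPM among the 38 members, Tax1bp1 went from 18th to 9th, Ulk1 from 31st to 20th and Rb1cc1 from 34th to 25th, while Sqstm1, Gabarap and Vmp1 were the top 3 in both groups.

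Promoter windows from 250 bases before to 50 bases after each annotated start were found in the RefSeq table for 31 of the 38 members. Bnip3l, Map1lc3a, Atg12, Pik3c3, Atg16l1, Becn1 and Rb1cc1 had no entry. Each motif was searched on both strands. The E-box CACGTG, bound by TFEB, TFE3, USF and MYC family factors, occurred in 4 of the 31 members (12.9%), against 8.09% of 27025 genes with a window. The antioxidant response element TGACNNNGC occurred in 5 (16.1%, against 14% of genes), namely Atg13, Map1lc3b, Tax1bp1, Ulk2 and Vmp1. The ATF4 element TGATGNAA occurred in 0 members, against 4.51% of genes. The GC box GGGCGG, searched after the sequences were seen, occurred in 21 members (67.7%), against 38.2% of genes. The 27025 genes include genes not tested here, so they are not matched to the members in level. These matches are letters in a window, not bound sites, and no test was made.

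The E-box matches are shown with their surroundings as a description. The part of any factor that binds this element was not tested. Capitals mark the motif, and the windows lie at chr16:45158726-45158749 and chr16:45158749-45158772 for Atg3, chr10:44268316-44268339 for Atg5 and chr6:114670955-114670978 for Atg7, all on the plus strand, and at chr14:47568421-47568444 on the minus strand for Atg14.
Atg3, first: tccttttgtCACGTGtcctgggag
Atg3, second: gagtcgagtCACGTGaggccttag
Atg5: agcgcttgcCACGTGgtcttggtg
Atg7: attggtggtCACGTGtgcagtaag
Atg14: acaaaatccCACGTGactggccct
Of these 4 genes, Atg3, Atg5 and Atg14 rose with UDCA and Atg7 did not pass the test. Of all genes tested, 40.2% rose, so the values of 4 genes say nothing particular about the E-box. The Atg14 match begins 1 base before an annotated start, so most of its letters lie after that start. The matches of Atg7 and Atg14 belong to annotated starts inside the genes. On its strand, Atg7 begins at 114643097 and Atg14 at 47570649.

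Transcript length did not track the changes of the members closely. Over the 37 tested members, Spearman's rho between the longest transcript and the log2FC was -0.0685, against 0.119 over 11765 genes with a length, a description across genes that are not independent.

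Other autophagy genes were read from 4 further lists. Of 15 tested core genes outside the 38, 10 rose (66.7%, against 40.2% of all genes) and 3 fell (20%, against 32.3%), with a median log2FC of 0.36. Past both thresholds were Tmem41b, a partner scramblase of VMP1, which had 47.5 to 57.2 TPM with LPS and 108 to 111 TPM with UDCA (log2FC 1.12, limma adjusted p = 3.2e-07), and 2 genes that fell. Atg9b, the paralog of Atg9a, had 10.5 to 13.2 and 3.27 to 3.74 TPM (log2FC -1.43, limma adjusted p = 6.8e-07). Rubcnl, whose product promotes autophagosome maturation, had 2.61 ± 0.408 and 0.790 ± 0.124 TPM (log2FC -1.006, limma adjusted p = 6.9e-05). It passed the 2-fold threshold narrowly, and without LPS replicate 2, LPS replicate 4 or LPS + UDCA replicate 2 only 1 core gene fell past both thresholds.

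With Atg9b lower, the ratio of Atg9a to Atg9b was 1.66 to 2.40 with LPS and 6.80 to 7.63 with UDCA. The ratio of Atg16l2 to Atg16l1 had a mean of 1.09 and 1.80, and that of Atg2b to Atg2a a mean of 1.011 and 1.69.

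Of 19 other receptor genes tested, 13 rose (68.4%, against 40.2% of all genes) and 3 fell (15.8%, against 32.3%), with a median of 0.42. Tex264, a receptor for the endoplasmic reticulum, rose from 50.6 ± 0.484 to 117 ± 6.21 TPM (log2FC 1.19, limma adjusted p = 3e-08). Trim5, one of a cluster of similar genes among which reads may be split, had a log2FC of 1.16 (limma adjusted p = 0.00067). Of 15 genes for fusion with the lysosome, 4 rose (26.7%, below the 40.2% of all genes) and 3 fell (20%, against 32.3%), with a median of 0.036. The tether gene Epg5 alone passed both thresholds in this list, rising from 7.91 ± 0.490 to 18.5 ± 0.410 TPM (log2FC 1.13, limma adjusted p = 2.5e-07).

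Of 30 tested regulators of mTORC1, AMPK and autophagy transcription, 18 rose (60%, against 40.2% of all genes) and 7 fell (23.3%, against 32.3%), with a median of 0.36. Those past both thresholds were led by Zkscan3, which encodes a repressor of autophagy genes, with 6.86 to 7.43 TPM with LPS and 21.1 to 22.7 TPM with UDCA (log2FC 1.48, limma adjusted p = 3.3e-08). Fnip1, which encodes a folliculin partner, had a log2FC of 1.47, and Sesn2, a stress-induced inhibitor of mTORC1, one of 1.44. Ddit4 and Nfe2l2, at 1.28 and 1.04, also passed and were named after their values were seen. Prkag1, a regulatory subunit of AMPK, fell from 43.2 ± 2.85 to 18.1 ± 1.41 TPM (log2FC -1.21, limma adjusted p = 4.2e-07).

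**Figure D5:**
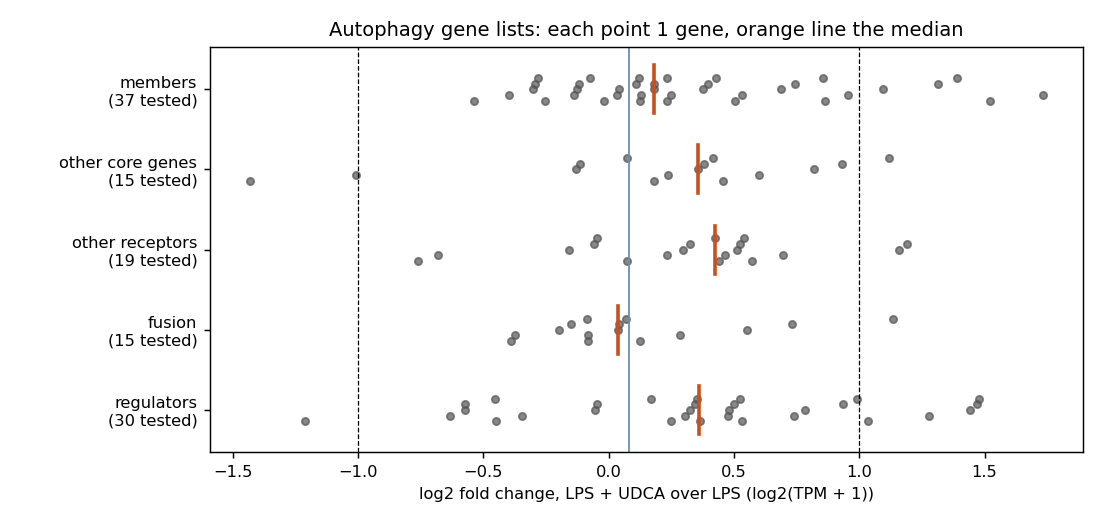
Log2 fold change of every tested gene in 5 autophagy lists, LPS + UDCA over LPS on log2(TPM + 1), each point 1 gene, with an orange line at each list's median, a blue line at the median of all genes tested (0.082) and dashed lines at a 2-fold change. The medians are 0.18 for the members, 0.36 for other core genes, 0.42 for other receptors, 0.036 for fusion genes and 0.36 for regulators.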

How the data were processed

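RNA from J774A.1 macrophages treated with LPS or with LPS + UDCA was sequenced (TruSeq libraries, Illumina HiSeq, 4 libraries in each group). In the table the authors deposited, each library has 1 column of TPM, rounded to 2 decimals. The submitters' processing notes name Bowtie 0.12.2, mm10 and GRCm38 without a role. The program that counted reads and its use of strand are not given in the sources used here. TPM keeps no read number, so no counting error could be computed.

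Groups came from the sample labels. Values were tested as log2(TPM + 1), for genes averaging 1 TPM or more, with limma 3.58.1 in R 4.3.3 (lmFit, eBayes with a mean-variance trend) and Benjamini-Hochberg adjustment over all 11796 genes. Calls used an adjusted p (FDR) under 0.05, and separately a fold change of at least 2 with it, as in the study. Single values and shares were compared by exact permutation of the 8 libraries (70 arrangements), and figures were drawn with matplotlib 3.10.9. Scaling, filters, pseudocounts, variance models, a replicate block and leaving out each library were tried as alternatives.

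The members, gene lists, motifs and tests were chosen with earlier results of these data known. Given by library were every member past both thresholds, the 5 ATG8 genes and, among called members not past both thresholds, the 3 highest (Atg4c, Gabarapl1, Atg14) and the 3 lowest (Atg4d, Atg101, Atg16l1) by log2 fold change. Of each other list, genes past both thresholds were named, at most 3 in each direction. Gene positions are from GENCODE M21 (GRCm38), which held 55227 of the 55487 listed identifiers and all 38 members, and may differ from the annotation the authors used. Upstream sequences are from RefSeq (GRCm38.p6). Shared sequence was measured as the percent of a gene's 31-base words that occur in other genes.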

Additional observations from a re-analysis of the deposited data

Results flagged for a closer look

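A gap between the highest or lowest library and the next one was compared with the range of its group for the 37 tested members in both groups, 74 groups of 4 in all. Chance passes Dixon's 95% critical value in about 1 of 20 groups, or 3.7 of 74, and 2 passed. For Gabarapl2, LPS + UDCA replicate 4 was highest at 67.56 TPM, with a ratio of gap to range of 0.862, while the other three libraries of the group lay between 62.35 and 63.07 TPM. For Pik3r4, LPS replicate 4 was highest at 12.67 TPM, with a ratio of 0.887, while the others lay between 9.75 and 10.08 TPM. Without that library the log2 fold change of Pik3r4 was 0.0053 in place of -0.076, and neither passed the test.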

How the results depend on the processing

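TPM without read numbers limits these results to the spread between 4 libraries per group, and the scaling of the libraries cannot be checked against a standard. Under every alternative with a test, Sqstm1, Tax1bp1, Ulk1 and Rb1cc1 passed both thresholds. Median-of-ratios scaling gave 8 lower members in place of 5, while 4450 of 11780 genes were lower in place of 3807 of 11796. It also gave log2 fold change medians of 0.104 for the members, 0.989 for receptors, 0.075 for the ATG8 family, 0.600 for the ULK complex and 0.104 for conjugation genes. With the sign turned, they were -0.077 for the PI3K complex and -0.065 for the WIPI group. The sign also turned for Gabarap (-0.000302), Wipi2 (-0.065) and Atg7 (-0.073). With the median of all genes taken off, the medians were 0.1, 1.012, 0.1, 0.604 and 0.098 in the same order, and -0.059 for the PI3K complex, -0.039 for the WIPI group, -0.039 for Wipi2 and -0.049 for Atg7. Quantile normalization gave 0.584 for the ULK complex, -0.013 for the PI3K complex and 0.069 for conjugation genes. Without a filter, which added Optn, the receptor median was 0.814. With at least 1 TPM required in every library, 1 other core gene fell past both thresholds in place of 2. Pseudocounts of 0.1 and 0.01 gave 0.234 and 0.234 for the members, 0.848 and 0.869 for the ULK complex and 0.283 and 0.300 for conjugation genes. The cause of these shifts was not tested beyond their construction.

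Leaving out 1 library at a time gave 3 to 6 lower members, against 3620 to 3820 lower of all genes. It gave 1 to 2 other core genes lower past both thresholds. The medians ran from 0.144 to 0.229 for the members, 0.099 to 0.208 for the ATG8 family, -0.011 to 0.076 for the PI3K complex and 0.054 to 0.317 for conjugation genes. The PI3K median was -0.011 without LPS replicate 3 and -0.002 without LPS + UDCA replicate 2. Pik3r4 ran from -0.153 to 0.0053, turning positive without LPS replicate 4 and, at 0.000135, without LPS + UDCA replicate 4. Tecpr1 ran from -0.064 to 0.022, turning positive without LPS replicate 1 and, at 0.0064, without LPS + UDCA replicate 4. As differences from the family mean of log2(TPM + 1), the shares of Map1lc3a and Calcoco1 turned to -0.0075 and 0.32.

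Groups share replicate numbers, and the labels do not say that these mark pairs. Deviations of same-numbered libraries correlated at -0.035 to 0.146 over 4 pairs, against -0.145 to 0.162 over 12 pairs with different numbers. These ranges overlap, yet 5 of 8 libraries correlated best with their own number, so pairing was neither shown nor excluded. The main fit did not use it. With the replicate block, 19 members were higher and 6 lower, against 4634 and 3737 of all genes, and 23 members passed in both fits. Gabarap (limma adjusted p = 0.037) and Becn1 (limma adjusted p = 0.047) passed only with the block, and Atg9a (limma adjusted p = 0.06) only without it. A log2 ratio of mean TPM without a pseudocount, added after seeing the data, kept the direction of every member tested and was larger by more than the replicate spread for Rb1cc1 (2.02), Ulk1 (1.45), Ulk2 (0.87) and Atg4c (1.15).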
